A study of Mus musculus with 6 samples.

Results

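The 6 genes described here encode the corticosteroid receptors of the brain and proteins that set how much hormone they see and how they are folded. They are the glucocorticoid receptor gene Nr3c1, the mineralocorticoid receptor gene Nr3c2, the immunophilin co-chaperones Fkbp5 and Fkbp4, the small Hsp90 co-chaperone Ptges3 (also called p23) and the steroid-activating enzyme gene Hsd11b1. They were picked by symbol, all 6 of 6 were present among 26264 symbols in the files, and all 6 were among the 14739 genes that passed the filter on low counts. RNA was sequenced from basolateral amygdala tissue of male mice, a region known for its role in fear and anxiety. The control group (Ctrl in the labels) had 3 libraries and the stress group (CRS) had 3 libraries from animals under chronic restraint, in which a mouse is repeatedly kept immobile. All 6 are labelled as biological replicates, without saying whether a library is 1 animal. The labels name no genotype, transgene or drug, and strain, age, the number and length of the restraint sessions and the time from the last session to dissection are not stated there.

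Corticosterone, the main glucocorticoid of the mouse, acts through both receptors. The mineralocorticoid receptor binds it with high affinity and is largely occupied at rest, while the glucocorticoid receptor binds it with lower affinity and is occupied when the hormone rises at its daily peak or under stress. Without hormone both receptors sit in a complex with Hsp90. Ptges3 stabilizes the hormone-binding state of that complex. FKBP51, the product of Fkbp5, lowers the affinity of the glucocorticoid receptor for hormone and is itself induced by the receptor, which makes it a short negative feedback loop. FKBP52, the product of Fkbp4, competes for the same place on Hsp90 and links the complex to the dynein motor. The enzyme encoded by Hsd11b1 regenerates active corticosterone from 11-dehydrocorticosterone inside cells.

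The 250 bases before the start site were read for the members from RefSeq promoter records of the build GRCm38.p6, in which 5 of the 6 genes had an entry. This build differs from mm39, the build named for the deposited data, so these positions are not those of the alignments. The promoters of Fkbp5, Fkbp4 and Hsd11b1 are shown because the first pair encodes the competing immunophilins and the third belongs to the member with the lowest and most variable level. They are printed 5′ to 3′ on the strand of the gene, and capitals mark the letters of a CCAAT box (CCAAT or its reverse ATTGG), a heat shock element core (GAANNTTC, which is its own reverse complement) or a glucocorticoid receptor half-site (AGAACA or its reverse TGTTCT). Fkbp5 lies on the minus strand at chr17:28486150-28486399, Fkbp4 on the minus strand at chr6:128438657-128438906 and Hsd11b1 on the minus strand at chr1:193242361-193242610.
Fkbp5: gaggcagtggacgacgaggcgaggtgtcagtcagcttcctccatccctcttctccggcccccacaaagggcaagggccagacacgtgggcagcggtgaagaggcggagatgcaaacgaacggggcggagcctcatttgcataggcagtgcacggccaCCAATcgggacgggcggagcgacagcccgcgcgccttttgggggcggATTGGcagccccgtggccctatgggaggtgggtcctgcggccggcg
Fkbp4: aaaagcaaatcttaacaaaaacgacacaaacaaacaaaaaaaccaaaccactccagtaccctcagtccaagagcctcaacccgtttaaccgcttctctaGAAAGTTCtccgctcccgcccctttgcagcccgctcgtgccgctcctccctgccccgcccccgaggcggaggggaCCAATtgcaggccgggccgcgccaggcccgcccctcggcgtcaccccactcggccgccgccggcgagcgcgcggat
Hsd11b1: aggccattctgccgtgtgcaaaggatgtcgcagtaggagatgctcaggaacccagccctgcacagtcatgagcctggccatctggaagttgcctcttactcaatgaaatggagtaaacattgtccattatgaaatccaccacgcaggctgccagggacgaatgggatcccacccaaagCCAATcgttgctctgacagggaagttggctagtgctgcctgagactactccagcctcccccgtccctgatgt
The Fkbp4 stretch held 1 heat shock element core, GAAAGTTC, at bases -151 to -144 from the start, and 1 CCAAT box. The Fkbp5 stretch held 2 CCAAT boxes and no heat shock element core, and the Hsd11b1 stretch held 1 CCAAT box. Of the stretches not printed, that of Nr3c2 held 1 heat shock element core, GAACTTTC, also at bases -151 to -144, and 3 CCAAT boxes, and that of Ptges3 held neither. The letters GAANNTTC were present in 6.69% of 32851 promoter stretches of this length and a CCAAT box in 33.8%. The half-site AGAACA or TGTTCT was in none of the 5 members' stretches and in 16.1% of all stretches, which says only that these letters are not in this window. GC boxes (GGGCGG or CCGCCC), which are not in capitals, numbered 3 each in Nr3c2, Fkbp5, Fkbp4 and Ptges3 and 0 in Hsd11b1, and 32.7% of all stretches held at least 1. The GC content was 68.0% for Fkbp5, 63.2% for Fkbp4 and 54.4% for Hsd11b1, beside a median of 52.4% over all stretches. These matches are a description of letters and not of bound sites.

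Counts in genes were 9859449 to 10233706 per library. Each gene's level is given as CPM, its counts relative to all counts in genes scaled to a common library size, with TMM, a method that assumes that most genes do not differ. The choroid plexus and ependymal marker list summed to 236 to 6572 CPM in the control and 146 to 8930 CPM in the stress libraries, with controls 1 and 2 and stress 2 as the high libraries. The striatal and central amygdala list summed to 455 to 918 CPM in the control and 112 to 487 CPM in the stress libraries, and was lowest in stress 1, where Isl1 had 0 counts. The excitatory neuron markers of the basolateral amygdala were present in all libraries, at 2779 to 3514 CPM in sum. Camk2a and Slc17a7, at means of 1143 and 1001 CPM, were the largest parts of that sum. Other markers varied more, with Lypd1 at 342 to 584 CPM in control and 104 to 518 CPM in stress libraries. Lmo3 was at 160 to 321 and 161 to 436 CPM. The highest stress value was above the highest control value for Rspo2 (40.9 against 23.2 CPM) and Neurod6 (86.9 against 58.3 CPM). The same held for Etv1 (104 against 73.5 CPM) and Fezf2 (35.7 against 17.2 CPM). For Lypd1 and Camk2a the highest stress value was below the highest control value. The sum therefore does not show that the libraries were alike in each marker. In such bulk samples fewer cells of a type and less RNA per cell cannot be told apart.

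For no member was the difference between stress and control larger than the spread between libraries by the test used. In edgeR's quasi-likelihood test 0 of 6 members had an adjusted p under 0.05, as did 0 of 14739 genes (0% called), and at an unadjusted p under 0.05 there were 0 of 6 members beside 3.37% of all genes. The control and stress ranges overlapped for all 6 members, whereas they did not overlap for 8.28% of tested genes (3.8% higher and 4.48% lower under stress). The members' log2 fold changes, stress minus control, ran from -0.07 for Fkbp5 to 0.28 for Hsd11b1, 4 above and 2 below 0, with a median of 0.03 beside a median of -0.0044 over all tested genes. DESeq2 and edgeR's likelihood ratio test, which called 2 and 4 genes in all, called none of the 6 either.

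**Figure D1:**
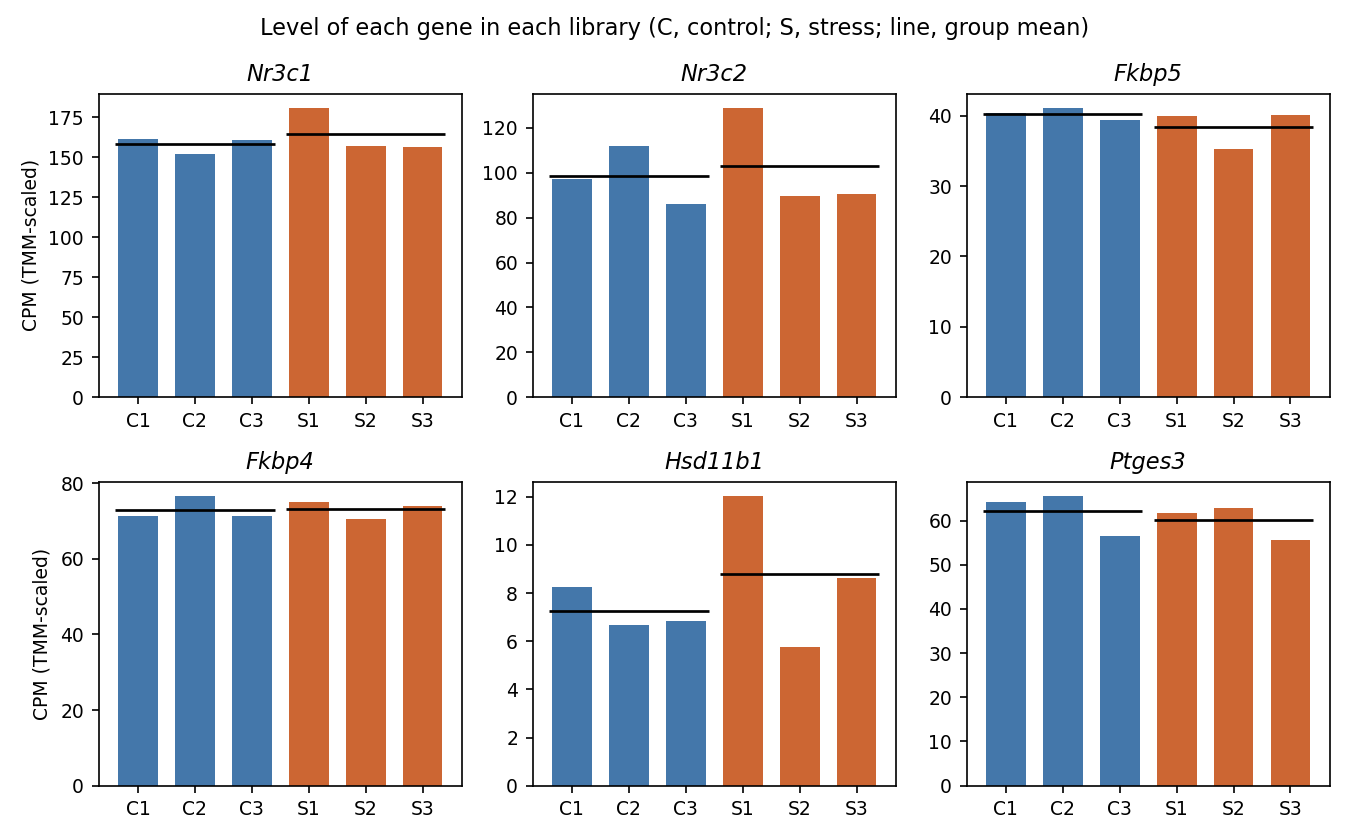
Level of each of the 6 genes in CPM (bar height, axis from 0) in the 3 control (blue, C1 to C3) and 3 stress (orange, S1 to S3) libraries, with the group mean as a line. Stress 1 is the highest library for Nr3c1, Nr3c2 and Hsd11b1, and the groups overlap in every panel.

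Of the receptors, Nr3c1 was the more precisely measured. It was at 162, 152 and 161 CPM in control libraries 1 to 3, against 181, 157 and 156 CPM in the stress libraries in the same order. Stress 1 stood above all others, and stress 2 and 3 lay between the lowest and the highest control. The group values were 158 ± 5.21 and 165 ± 13.9 CPM (SD, n = 3 each), a fold change of 1.04 under stress with a 95% interval from 0.925 to 1.17 (log2 fold change 0.06 ± 0.07 SE, adjusted p = 0.997, edgeR). Counts behind these values were 1560 to 1760 per library, so that counting alone gives a coefficient of variation of about 2.49%. Over the 3 controls the coefficient of variation was 3.29%, and over the 3 stress libraries 8.43%. Without stress 1 the log2 fold change of Nr3c1 was -0.012.

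Nr3c2 varied more between libraries. It was at 97.0, 112 and 86.2 CPM in control libraries 1 to 3, against 129, 89.4 and 90.6 CPM in the stress libraries in the same order. The highest library was again stress 1, the next was control 2, and the other 4 lay between 86.2 and 97.0 CPM. The group values were 98.3 ± 12.9 and 103 ± 22.4 CPM (SD, n = 3 each), a fold change of 1.05 with an interval from 0.796 to 1.38 (adjusted p = 0.997, edgeR). The coefficient of variation over all 6 libraries was 16.5%, against 3.16% from counting, and it was at or above that of 91.9% of the 1000 tested genes nearest to it in level. The same share for Nr3c1 was 50.3%. The direction of Nr3c2 turned below 0 without stress 1 (log2 fold change -0.13) and without control 3 (-0.020). In the annotation used for lengths, 155 bases of Nr3c2 exons are shared with an exon of Gm10649 on the other strand, and the strand setting of the counting is not stated. Gm10649 itself was too low to be tested.

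The balance of the receptor RNAs was read as the ratio of Nr3c2 to Nr3c1 counts within each library, which needs no scaling. Such a ratio carries the exon lengths of its 2 genes, so it compares libraries and not the amounts of the 2 RNAs. The Nr3c2 to Nr3c1 ratio was 0.601, 0.735 and 0.537 in control libraries 1 to 3, against 0.713, 0.569 and 0.580 in the stress libraries in the same order. The groups overlapped over nearly their whole range, with the highest ratio in control 2 and the lowest in control 3. The means were 0.624 ± 0.101 and 0.621 ± 0.0802 (SD, n = 3 each), a difference of -0.0034 on the log2 scale (two-sided exact permutation p = 1, the least possible with 3 against 3 being 0.1, adjusted p = 1 over the 3 ratios tested). Its sign differed between single left-out libraries, from -0.11 without stress 1 to 0.12 without control 2.

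Of the co-chaperones, Fkbp5 was close to constant in 5 of the 6 libraries. It was at 40.4, 41.1 and 39.4 CPM in control libraries 1 to 3, against 39.9, 35.4 and 40.1 CPM in the stress libraries in the same order. Stress 2 was the lowest library, while stress 1 and 3 lay within the range of the controls. The means were 40.3 ± 0.835 and 38.5 ± 2.71 CPM (SD, n = 3 each), a fold change of 0.955 with an interval from 0.843 to 1.08 (adjusted p = 0.997, edgeR). An increase under stress of more than 1.08-fold therefore lay outside this interval for this receptor-induced gene. That bound depends on the test and on stress 2. The SE of the log2 fold change was 0.08 in this fit and 0.12 with DESeq2. The control coefficient of variation of 2.07% was below the 5.04% that counting of 351 to 424 reads gives. Without stress 2 the log2 fold change was -0.0054 ± 0.081 (SE, edgeR).

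Fkbp4 had the narrowest interval of the 6. It was at 71.4, 76.5 and 71.2 CPM in control libraries 1 to 3, against 75.1, 70.6 and 74.0 CPM in the stress libraries in the same order, so that the lowest and the highest library differed 1.08-fold. The groups interleaved, with control 2 highest and stress 2 lowest. The means were 73.0 ± 3.01 and 73.2 ± 2.33 CPM (SD, n = 3 each), a fold change of 1.00 with an interval from 0.905 to 1.11 (adjusted p = 0.999, edgeR). Its coefficient of variation over the 6 libraries, 3.29%, was close to the counting value of 3.70%. The estimate of 0.0036 on the log2 scale had no settled sign and was -0.014 with library size alone.

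The ratio of the competing immunophilins, Fkbp5 to Fkbp4 counts, was 0.565, 0.537 and 0.554 in control libraries 1 to 3, against 0.532, 0.501 and 0.542 in the stress libraries in the same order. Stress 1 and 2 lay below all controls, and stress 3 lay above control 2. The means were 0.552 ± 0.0141 and 0.525 ± 0.0217 (SD, n = 3 each), a difference of -0.07 on the log2 scale (two-sided exact permutation p = 0.2, adjusted p = 0.45 over the 3 ratios), which was -0.039 without stress 2. Fkbp5 relative to Nr3c1, the receptor that induces it, was 0.250, 0.270 and 0.246 in control libraries 1 to 3, against 0.221, 0.225 and 0.257 in the stress libraries in the same order. Stress 1 and 2 were again below all controls and stress 3 was within their range. The difference was -0.13 on the log2 scale (two-sided exact permutation p = 0.3, adjusted p = 0.45), and ran from -0.19 without stress 3 to -0.084 without control 2. These ratios share Fkbp5, so they are not independent of each other. As ratios of counts they also carry exon length. Per exon length, with the lengths used below, Fkbp5 to Fkbp4 was 0.148 to 0.167 over the 6 libraries.

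**Figure D2:**
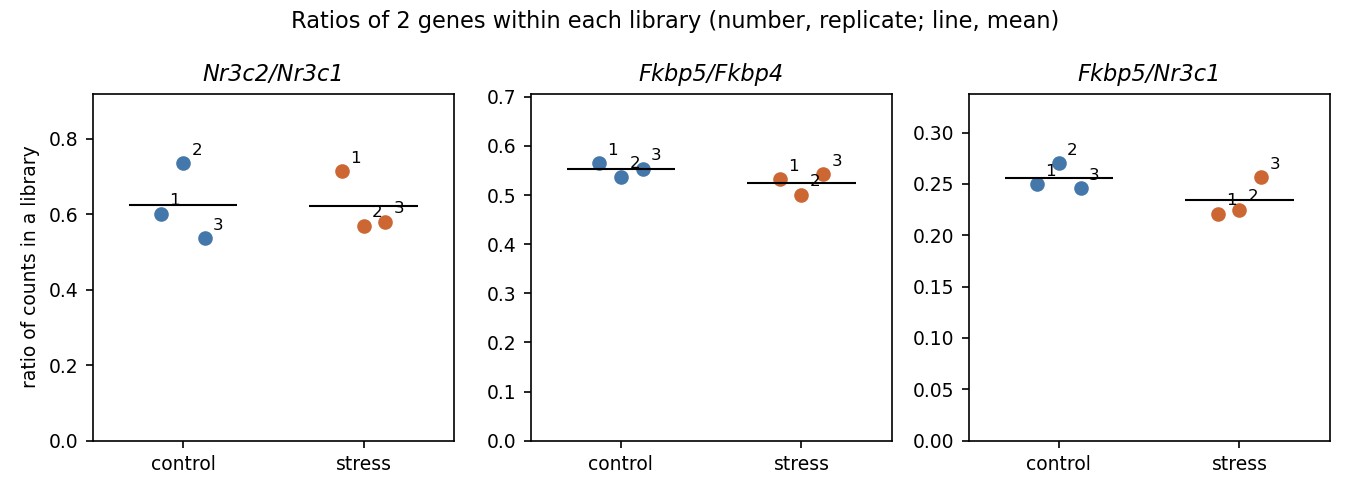
Ratio of the counts of 2 genes within each library (vertical axis, from 0) for controls (blue) and stress (orange), each point marked with its replicate number and the group mean as a line. Nr3c2/Nr3c1 spans 0.537 to 0.735 with the groups mixed, and in both Fkbp5 ratios the points of stress 1 and 2 lie below all controls and that of stress 3 does not.

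Ptges3 was at 64.2, 65.5 and 56.6 CPM in control libraries 1 to 3, against 61.7, 62.9 and 55.6 CPM in the stress libraries in the same order. The low libraries were control 3 and stress 3, 1 of each group. The means were 62.1 ± 4.78 and 60.1 ± 3.92 CPM (SD, n = 3 each), a fold change of 0.968 with an interval from 0.847 to 1.11 (adjusted p = 0.997, edgeR). RefSeq lists a pseudogene, Ptges3-ps. Reads without a unique alignment had a summary row of their own (6.97% of reads in stress 1 to 8.16% in control 2). Whether such reads also entered the gene counts is not stated, so the level of Ptges3 is uncertain. Without control 2 or stress 3 the sign turned (0.00019 and 0.0051 on the log2 scale).

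Hsd11b1 was the least abundant member and had the widest interval. It was at 8.25, 6.69 and 6.85 CPM in control libraries 1 to 3, against 12.01, 5.74 and 8.64 CPM in the stress libraries in the same order. The stress libraries held both the highest and the lowest value, with all controls between them. The means were 7.26 ± 0.858 and 8.80 ± 3.14 CPM (SD, n = 3 each), a fold change of 1.21 with an interval from 0.800 to 1.83 (log2 fold change 0.28 ± 0.26 SE, adjusted p = 0.997, edgeR). It rests on 57 to 117 counts per library, and counting alone gives a coefficient of variation of 11.2%, close to the 11.8% over the controls and below the 35.7% over the stress libraries. Without stress 1 the log2 fold change was -0.013, and without stress 2 it was 0.51. Stress 2, the lowest library for Hsd11b1, was the library with the highest choroid plexus sum. Control 1, also high in that sum (3697 CPM), had the highest control value of Hsd11b1. Control 2 (6572 CPM in that sum) and control 3 (236 CPM) were close to each other in Hsd11b1. A relation to the choroid plexus sum was not tested.

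**Figure D3:**
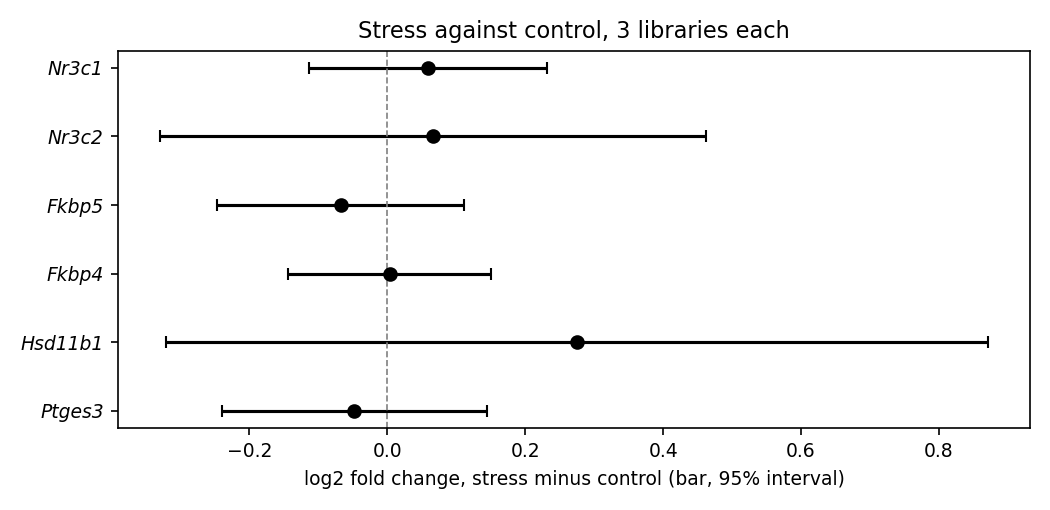
Log2 fold change, stress minus control (horizontal axis), of the 6 genes with its 95% interval as a bar, from edgeR on 3 against 3 libraries; the dashed line is at 0. All 6 intervals include 0, and the widest are those of Hsd11b1 and Nr3c2.

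Stress 1 was the highest library for 3 of the 6 members, Nr3c1, Nr3c2 and Hsd11b1, and for 22.6% of all tested genes. Relative to the mean of the other 5 libraries it was 1.15-fold for Nr3c1, 1.36-fold for Nr3c2 and 1.66-fold for Hsd11b1, but 1.02-fold for Fkbp5, 1.03-fold for Fkbp4 and 1.01-fold for Ptges3. Without it the coefficient of variation went from 6.23 to 2.39% for Nr3c1, from 16.5 to 10.7% for Nr3c2 and from 27.7 to 16.5% for Hsd11b1, a fall that follows in part from leaving out the highest value. It went from 5.21 to 5.79% for Fkbp5, from 3.29 to 3.41% for Fkbp4 and from 6.65 to 7.43% for Ptges3. It was also the library with the lowest striatal and central amygdala sum (112 CPM, 447 to 918 in the others) and the lowest oligodendrocyte sum (1762 CPM, 1990 to 3562 in the others), and all 10 of 10 markers of each of these lists had estimates below 0 under stress. Estimates were also below 0 for 9 of 10 choroid plexus and ependymal markers (median -0.40), 8 of 10 meningeal fibroblast markers (-0.42), 8 of 10 astrocyte markers (-0.13), 7 of 10 endothelial markers (-0.17) and 8 of 10 microglial markers (-0.03). For 9 of 10 excitatory neuron markers of the basolateral amygdala they were above 0 (median 0.17), and 51.6% of all tested genes were below 0. The part of these marker levels in the receptor values was not tested. In a fit without control 1 and without stress 1, added once the values were known, Nr3c1 was at 0.0035, Nr3c2 at -0.14 and Hsd11b1 at 0.09 on the log2 scale.

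Levels were compared between the genes per kilobase of exon, with exon lengths from GENCODE M21 on GRCm38, since the labels do not name the annotation used for counting. Ptges3 was highest at 27.6 ± 1.83 CPM per kb (SD over 6 libraries), followed by Fkbp4 at 26.2 ± 0.862, Nr3c1 at 21.0 ± 1.31, Nr3c2 at 15.5 ± 2.56, Fkbp5 at 4.16 ± 0.217 and Hsd11b1 at 1.89 ± 0.523 CPM per kb. Ptges3 and Fkbp4 did not differ beyond their spread, with ranges of 25.1 to 29.5 and 25.3 to 27.4 CPM per kb, and traded places in stress 3. Nr3c1 stood above Nr3c2 in each of the 6 libraries, but their ranges touched, since Nr3c2 reached 19.9 CPM per kb in stress 1 and the lowest Nr3c1 value was 19.8. Fkbp5 lay below both receptors and above Hsd11b1 in every library without overlap. Among tested genes with a length, Fkbp4 was at the 88.2 percentile per kb, Nr3c1 at the 84.7, Fkbp5 at the 40.4 and Hsd11b1 at the 22.7 percentile. With the longest coding transcript in place of all exons, Fkbp5 was at 10.2 and Fkbp4 at 33.0 CPM per kb, Ptges3 came after Fkbp4 at 30.5, and the order of the other 4 was unchanged.

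**Figure D4:**
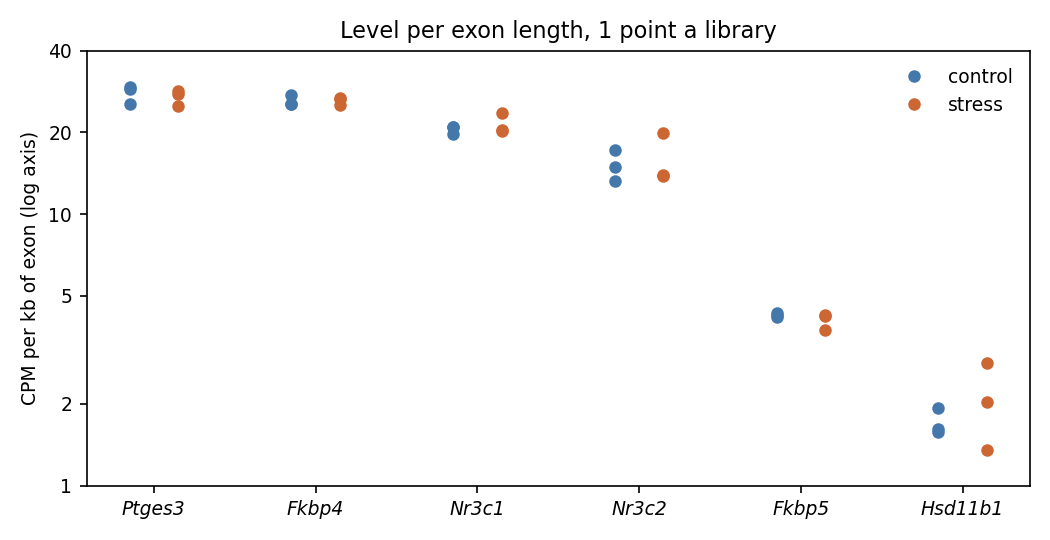
Level per exon length in CPM per kb (vertical axis, logarithmic) for the 6 genes in order of level, with 1 point for each control (blue) and stress (orange) library. Ptges3 and Fkbp4 overlap, and Fkbp5 (3.73 to 4.34) and Hsd11b1 (1.35 to 2.83) lie apart from the rest.

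The remaining genes of the pathway were read from 6 lists, described by their counts and medians without a test of the lists. None of their members passed the adjusted threshold. In the Hsp90 and Hsp70 folding machinery 0 of 11 tested genes passed, 2 had estimates above and 9 below 0, and the median was -0.03. Hsp90ab1, the constitutive cytosolic Hsp90, was at 1407 ± 101 CPM in controls against 1383 ± 34.8 CPM with stress. Hsp90aa1, the inducible form, was at 406 ± 27.2 and 371 ± 21.9 CPM, a log2 fold change of -0.13 ± 0.08 (SE). The constitutive Hsp70 gene Hspa8 was at -0.04 ± 0.09 and the J-domain co-chaperone Dnajb1 at 0.08 ± 0.10. St13, which encodes the Hsp70-interacting protein Hip, was at 130, 142 and 124 CPM in control libraries 1 to 3, against 111, 118 and 123 CPM in the stress libraries in the same order, so that its groups did not overlap, by less than 1 CPM (log2 fold change -0.16 ± 0.07 SE, adjusted p = 0.997, edgeR). All stress libraries lay below all controls for 1 of the 11 genes and for 4.48% of all tested genes. Several of these heat shock genes have near-identical copies in the genome, so their counts are uncertain. The highest library was control 2 for 7 of the 11 genes, which is also the highest library for Fkbp5, Fkbp4 and Ptges3 and for 14.9% of all tested genes.

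Among 15 other Hsp90 co-chaperones 0 passed, 9 had estimates above and 6 below 0, and the median was 0.03. Ppp5c encodes a phosphatase that occupies the same docking site on Hsp90 as the FKBP immunophilins. It was at 69.6, 75.1 and 72.6 CPM in control libraries 1 to 3, against 83.3, 78.1 and 82.2 CPM in the stress libraries in the same order, with all stress libraries above all controls. Its log2 fold change was 0.17 ± 0.06 (SE, 95% interval 0.02 to 0.31, unadjusted p = 0.0314, adjusted p = 0.997, edgeR), and it stayed between 0.14 and 0.20 with each library left out. It is named by the rule that takes the smallest p of a list. Groups that do not overlap with stress higher occur in 2 of the 15 genes, Ppp5c being 1 of them, and in 3.8% of tested genes. Fkbp8 was at 0.03 ± 0.06, the ubiquitin ligase Stub1 at -0.05 ± 0.07, Bag1 at 0.04 ± 0.08 and Ttc4 at -0.14 ± 0.08.

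Among 12 genes for nuclear import and the dynein motor, by which the hormone-bound complex is carried, 0 passed, 7 had estimates above and 5 below 0, and the median was 0.04. All stress libraries lay above all controls for 1 of the 12, not among those named here, and for 3.8% of all tested genes. The dynein heavy chain Dync1h1 was at 0.08 ± 0.09, importin beta Kpnb1 at -0.06 ± 0.06 and Ipo7 at -0.02 ± 0.06. The dynein intermediate chain Dync1i1 had the smallest p. It was at 126, 145 and 151 CPM in control libraries 1 to 3, against 192, 150 and 171 CPM in the stress libraries in the same order, with stress 2 inside the range of the controls and stress 1 again highest (log2 fold change 0.28 ± 0.11 SE, unadjusted p = 0.029, adjusted p = 0.997, edgeR).

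Of 13 receptor coregulators 0 passed, 11 had estimates above and 2 below 0, and the median was 0.07. Stress 1 was the highest library for 7 of the 13 and for 22.6% of all tested genes. Control 1 was the lowest for 8 of the 13 and for 15.6% of all tested genes. The coactivator Ncoa2 was at 165, 176 and 173 CPM in control libraries 1 to 3, against 188, 178 and 189 CPM in the stress libraries in the same order. Its log2 fold change was 0.11 ± 0.06 (SE, unadjusted p = 0.1, adjusted p = 0.997, edgeR), with all stress libraries above all controls. Such a separation was found for 1 of the 13 coregulators and for 3.8% of all tested genes. Ncoa1 was at 0.12 ± 0.08, the corepressor Ncor1 at 0.06 ± 0.06, Smarca4 at 0.03 ± 0.07 and Ncoa3 at -0.12 ± 0.08.

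Of 11 genes for the making, activation, inactivation and transport of corticosteroids, 7 could be tested, 0 passed, 4 had estimates above and 3 below 0, and the median was 0.01. H6pd, which supplies the cofactor for the Hsd11b1 enzyme, was at 13.2 ± 1.12 CPM in controls against 13.3 ± 0.802 CPM with stress. The efflux pump gene Abcb1a was at -0.17 ± 0.16 (-0.32 without control 2, -0.033 without control 3), Abcb1b at 0.19 ± 0.19, the reductase Srd5a1 at 0.05 ± 0.19 and Akr1c14 at -0.30 ± 0.27. Hsd11b2, whose enzyme inactivates corticosterone and protects the mineralocorticoid receptor from it in the kidney, had 1 count in all 6 libraries together. The adrenal synthesis genes Cyp11b1 and Cyp11b2 had 1 count each and the corticosteroid-binding globulin gene Serpina6 had 0. At this depth these 4 genes were not measurable, and no comparison was made.

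Of 16 targets induced by the receptors 0 passed, 5 had estimates above and 11 below 0, and the median was -0.09. The most abundant were Fam107a at -0.14 ± 0.10 (-0.22 without control 1, -0.045 without control 3), Klf9 at -0.11 ± 0.08 and Mt1 at -0.11 ± 0.07. Ddit4, an inhibitor of mTOR signalling, had the smallest p. It was at 18.6, 16.8 and 15.4 CPM in control libraries 1 to 3, against 17.2, 25.2 and 23.6 CPM in the stress libraries in the same order, with stress 1 inside the range of the controls (log2 fold change 0.38 ± 0.15 SE, unadjusted p = 0.0376, adjusted p = 0.997, edgeR). Fkbp5, a member described above and a target of the same receptor, was at -0.07 ± 0.08.

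**Figure D5:**
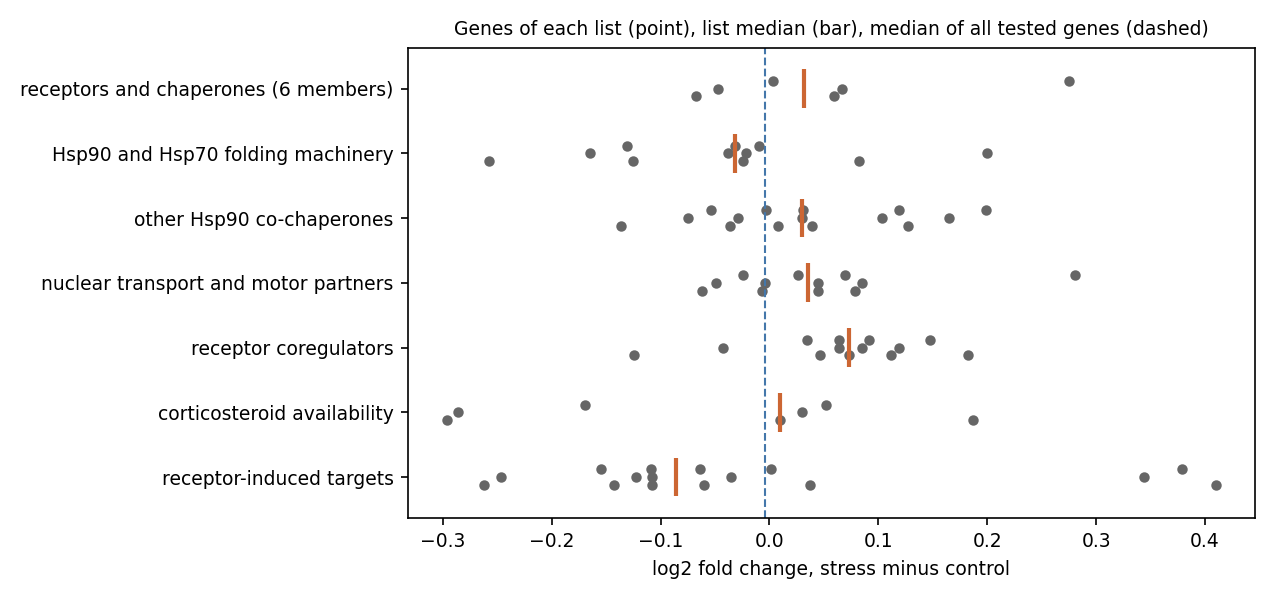
Log2 fold change, stress minus control (horizontal axis), of every tested gene (grey point) of the 6 members and 6 pathway lists, with the list median as an orange bar and the median of all tested genes dashed. The medians lie between -0.09 and 0.07, and no point passed the adjusted threshold.

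The genes most like each member were taken as those with the highest Pearson r of log2 CPM over the 6 libraries among 11920 genes. With 6 libraries such values are high for nearly any gene, and the median of the best r per gene was 0.992. For Nr3c1 they were Pou3f1 (r = 0.990), Coro1c (0.989) and Gm40733 (0.989), and for Nr3c2 they were Trappc8 (0.990), Cnot11 (0.986) and Ptpra (0.981). For Fkbp5 they were Crebzf (0.990), Nrep (0.977) and Adss (0.975), and for Fkbp4 they were Itsn2 (0.998), Pkp2 (0.989) and Rnf149 (0.985). For Hsd11b1 they were Fastk (0.999), Ehmt2 (0.998) and Runx1t1 (0.995), and for Ptges3 they were Elp4 (0.990), Mtx1 (0.989) and Gas5 (0.982). Of these, 4 of the 6 members had a best r below the median over all genes and no pathway gene was among the 18. Among the members themselves Pearson r was highest between Nr3c1 and Hsd11b1 (r = 0.82, Spearman rho = 0.54, n = 6 libraries), which are both highest in stress 1, and by rank the closest pair was Nr3c2 and Fkbp4 (rho = 0.83, r = 0.74). All these values are descriptions over the same 6 libraries, whose marker levels differ as given above.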

How the data were processed

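Each library came as the authors' deposited table of whole-number counts by gene symbol, without normalization. Total RNA depleted of ribosomal RNA was sequenced, per the labels' protocols. Tools named in the submitters' processing notes, with no role given, are HTSeq 0.13.5, STAR 2.7.7a, FastQC 0.12.1 and edgeR 3.42.4, with the build mm39. The annotation and the strand setting are not stated. Summary rows for reads in no gene (53.0 to 57.4% of reads) were left out of library sizes.

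In R 4.3.3 with edgeR 4.0.16, genes passing filterByExpr (minimum count 10) were fitted together with TMM scaling and the robust quasi-likelihood test, and p-values were adjusted by Benjamini-Hochberg over all 14739 genes. Intervals are 95% from the t distribution. P-values and intervals rest on the spread between 3 libraries a group, which edgeR moderates for each gene by that of all tested genes. The procedure was tested on simulated data. DESeq2 1.42.0, limma 3.58.1, other scalings and filters, a replicate block and each library left out were alternatives. Exon lengths matched 97.1% of tested symbols.

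The members and lists were chosen with earlier results of these data known. Named from each list are the 3 genes highest in mean CPM and the smallest p in each direction; for each member, the 3 genes of mean CPM of at least 5 with the highest r (log2 CPM, prior count 2).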

Additional observations from a re-analysis of the deposited data

How the results depend on the processing

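The number of genes with an adjusted p under 0.05 was 0 with edgeR's quasi-likelihood test, 2 with DESeq2, 4 with edgeR's likelihood ratio test, and 0 to 1 with each library left out (1 without control 3); the cause was not tested. No member or pathway gene passed in any of these. Of 37 named genes and ratios, 35 kept their sign in every planned setting that used all libraries and 24 with each library left out, of which 19 moved by over 1.5 times without at least 1 library. With library size alone Fkbp4 was at -0.014 and H6pd at -0.0065 (log2 fold change, as below). With each library left out the range was -0.012 to 0.097 for Nr3c1, -0.13 to 0.18 for Nr3c2, -0.014 to 0.046 for Fkbp4, -0.013 to 0.51 for Hsd11b1, -0.11 to 0.0051 for Ptges3, -0.062 to 0.043 for Hsp90ab1, -0.11 to 0.044 for Hspa8, -0.0052 to 0.071 for Fkbp8, -0.0024 to 0.11 for Bag1, -0.0087 to 0.075 for Smarca4, -0.050 to 0.078 for H6pd, -0.17 to 0.19 for Srd5a1 and -0.11 to 0.12 for the Nr3c2/Nr3c1 log2 ratio. Without control 1 and stress 1, chosen after seeing the values, signs turned for Nr3c2 (-0.14), Fkbp4 (-0.031), Fkbp8 (-0.012), Ipo7 (0.0045), Smarca4 (-0.041), H6pd (-0.034) and Srd5a1 (-0.13). Without the 3 libraries high in Ttr, also chosen afterwards and leaving control 3 as the only control, assumed to vary like the stress libraries, they turned for Fkbp5 (0.023), Ptges3 (0.053), Hsp90ab1 (0.030), Hspa8 (0.083), Dnajb1 (-0.060), Bag1 (-0.038), Dync1h1 (-0.060), Ipo7 (0.052), Smarca4 (-0.025), H6pd (-0.049) and the Nr3c2/Nr3c1 log2 ratio (0.26), while Nr3c2 went from 0.07 to 0.35 and Hsd11b1 from 0.28 to 0.59.

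Control and stress libraries of the same replicate number did not deviate together in every pair (r = -0.32, 0.53 and 0.28), and not every library correlated best with its own number. Deviations were taken from the mean of each group of 3 libraries, so these values cannot settle whether libraries were paired. The labels do not state a pairing. With the replicate number as a block 0 genes passed, and the log2 fold changes were 0.06 for Nr3c1, 0.05 for Nr3c2, -0.07 for Fkbp5, 0.0039 for Fkbp4, 0.24 for Hsd11b1 and -0.05 for Ptges3. With the block the log2 ratios were -0.0034 for Nr3c2/Nr3c1, -0.07 for Fkbp5/Fkbp4 and -0.13 for Fkbp5/Nr3c1. These equal the main values by construction, so the block could not turn the sign of a ratio. The mean of the differences within replicate numbers is the difference of the group means. Depth limits Hsd11b1 most, and 3 libraries a group limit every member: the interval was narrower than 0.4 on the log2 scale for 4 of 6 members (not Nr3c2 or Hsd11b1) and for 27.9% of tested genes.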
